A study of Mus musculus with 6 samples.

Results

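Transcripts of 10 enzymes of glycolysis were followed in mouse small pre-B cells: Hk1, Gpi1, Pfkl, Pfkp, Aldoa, Tpi1, Pgk1, Eno1, Pkm and Ldha. They were chosen by gene symbol, and all 10 were found among the 49997 symbols of the count table. The cells were sorted ex vivo from the bone marrow of C57BL/6 mice 6 to 12 weeks old, and the 2 groups were wild type (WT) and ΔrsCBE, with 3 RNA-seq libraries each. The Δ stands for a deletion, which the title of the series ties to CTCF-mediated chromatin topology and to receptor editing, in which a B-cell precursor exchanges its light chain by further rearrangement. Which interval is deleted, and whether libraries of a genotype came from separate mice, is not given in the sources used here. The p-values thus measure only the spread between these libraries. That spread may be technical, except between ΔrsCBE libraries whose sex patterns differ (below).

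Glycolysis splits glucose into pyruvate in the cytosol and yields ATP and NADH, and lactate dehydrogenase then turns pyruvate into lactate, which restores NAD+. Most steps have several isozymes encoded by separate genes, and hexokinase, phosphofructokinase and pyruvate kinase catalyse the practically irreversible steps. In developing B cells, large cycling pre-B cells are known for high glucose use, which falls when the cells become small, leave the cell cycle and rearrange their light chain genes. Transcription of many of these genes is known to be driven by HIF1 and MYC.

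Many of these enzymes have processed pseudogenes, which are copies of the spliced mRNA set elsewhere in the genome, so a read from the gene can match the copy equally well. The first 90 coding bases of 3 enzymes are shown with the same stretch of a copy, because they show why some counts are uncertain. Bases of the copy that differ from the enzyme are in capitals, and sequences run 5′ to 3′ as in GENCODE M21 (GRCm38).
Pgk1: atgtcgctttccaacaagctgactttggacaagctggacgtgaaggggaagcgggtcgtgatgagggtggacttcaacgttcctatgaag
Gm5537: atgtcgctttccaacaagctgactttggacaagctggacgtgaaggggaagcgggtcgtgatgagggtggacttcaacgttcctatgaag
Eno1: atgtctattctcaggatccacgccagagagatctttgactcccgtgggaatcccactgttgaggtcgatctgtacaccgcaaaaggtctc
Gm4735: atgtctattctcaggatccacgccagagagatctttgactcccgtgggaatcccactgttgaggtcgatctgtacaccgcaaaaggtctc
Pkm: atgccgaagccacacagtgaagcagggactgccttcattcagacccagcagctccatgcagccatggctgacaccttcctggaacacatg
Gm6560: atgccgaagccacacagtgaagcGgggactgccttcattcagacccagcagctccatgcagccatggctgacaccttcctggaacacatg
The Pgk1 and Eno1 stretches differed from their copies at 0 of 90 bases and the Pkm stretch at 1. By contrast, the 2 phosphofructokinases among the 10 enzymes can be told apart even where they are most alike. In the pair of 90-base coding stretches with the fewest differences, bases 502 to 591 of Pfkp and 478 to 567 of Pfkl, 12 bases differed (capitals in Pfkl).
Pfkp: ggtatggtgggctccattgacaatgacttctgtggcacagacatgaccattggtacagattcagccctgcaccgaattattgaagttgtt
Pfkl: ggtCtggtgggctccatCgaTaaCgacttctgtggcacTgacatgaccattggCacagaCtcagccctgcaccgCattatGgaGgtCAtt

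The share of each coding sequence found elsewhere was then measured over words of 50 bases, counted as shared when a transcript at another annotated locus holds the same word on the same strand. All 1202 words of Pgk1, phosphoglycerate kinase (chromosome X, 106187100 to 106203699, plus strand), were shared, and the pseudogene Gm5537 (chromosome 3, 58102996 to 58104247, minus strand) held each of them. For Eno1, enolase (chromosome 4, 150236721 to 150248879, plus strand), 83.3% of the words were shared with Gm4735 (chromosome 2, 80837141 to 80838442, plus strand) among 9 copies. The share was 46.9% for Pkm, pyruvate kinase (chromosome 9, 59656368 to 59679375, plus strand), and 32.4% for Gpi1, glucose-6-phosphate isomerase (chromosome 7, 34201330 to 34230336, minus strand). It was 28.4% for Ldha, the lactate dehydrogenase A subunit (chromosome 7, 46841475 to 46855627, plus strand), and 16.8% for Aldoa, aldolase A (chromosome 7, 126795234 to 126800751, minus strand). For Tpi1, triosephosphate isomerase (chromosome 6, 124810586 to 124814296, minus strand), it was 13.7%. Hk1, hexokinase 1 (chromosome 10, 62268855 to 62379908, minus strand), and the phosphofructokinases Pfkl (chromosome 10, 77986947 to 78010083, minus strand) and Pfkp (chromosome 13, 6579768 to 6648777, minus strand) shared no word. In all, 7 of the 10 enzymes had at least 10% of their coding words at another locus, against 9.73% of 7030 tested genes matched to a coding sequence. Their counts are therefore uncertain to the extent that reads with several matches were dropped or divided, which the sources used here do not state.

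Counts listed for the copies differed between enzymes. The 4 copies of Pgk1 that are in the count table summed to 0 in each library. The 7 such loci of Eno1, which include the enolase gene Eno1b, summed to between 3 and 19, and the 13 of Ldha to between 4 and 22. Gm6560, the copy of Pkm (chromosome 5, 22724578 to 22726168, minus strand), had 13, 8 and 37 counts in replicates 1 to 3 of WT and 29, 16 and 25 in those of ΔrsCBE, against 51, 47, 121, 98, 101 and 60 for Pkm. On the opposite strand Hk1 overlaps Hk1os, Gpi1 overlaps Gm26762, Pfkp overlaps Pitrm1, Aldoa overlaps Fam57b and Tpi1 overlaps Spsb2. Libraries were made with a strand-specific kit, but whether counting used the strand is not stated.

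Total counts per library ran from 428106 to 1300805, and the detection floor was set at 3 counts, or 2.31 to 7.17 CPM (counts per library total scaled to the same size). All 10 genes of a small pre-B list were tested and none passed the threshold. Their summed level was 10823 to 12540 CPM in WT and 12009 to 12528 CPM in ΔrsCBE. Lists of other B-lineage stages were not near 0. The pro-B and large pre-B list summed to 645 to 776 CPM in WT and 641 to 714 CPM in ΔrsCBE. The immature and mature B list summed to 543 to 834 CPM in WT and 556 to 677 CPM in ΔrsCBE. The plasma cell list, mostly Slamf7, summed to 545 to 602 CPM in WT and 531 to 586 CPM in ΔrsCBE. No tested gene of these lists passed the threshold. Outside the B lineage, 8 of 12 erythroid and 8 of 10 T and NK cell markers were at 0 in all libraries. The erythroid list summed to at most 9.55 CPM and the T and NK list to at most 2.46 CPM. In the myeloid list, which summed to 51.7 to 81.2 CPM in WT and 54.2 to 66.4 CPM in ΔrsCBE, nearly all counts were of Itgam, while Elane, Ly6c2, Prtn3 and S100a8 were at 0. Lyz2 and S100a9 had no count in WT, and had 2, 4 and 2 counts and 2, 1 and 3 counts in the ΔrsCBE libraries. Mpo and Ctsg had 1 count each, in ΔrsCBE replicate 1. Csf1r leaned the other way, with 4, 0 and 2 counts in WT and 1, 1 and 2 in ΔrsCBE. Itgam, the only myeloid gene to pass the count filter, had a log2 fold change of -0.11 ± 0.22 (SE). The part of the myeloid markers in the results was not tested. Xist and Y-linked counts gave a male pattern in all WT libraries and in ΔrsCBE replicate 1, and a female pattern in ΔrsCBE replicates 2 and 3. Sex and genotype can therefore be told apart only through ΔrsCBE replicate 1. That library was not from the same mouse as ΔrsCBE replicates 2 and 3. Whether those 2, or the WT libraries, came from separate mice remains unknown.

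All 10 enzymes had counts in each library, at modest levels. Together they had 221, 187 and 495 counts in replicates 1 to 3 of WT and 368, 383 and 321 in those of ΔrsCBE. Levels were compared between genes per kb of the mRNA with the longest coding sequence. Aldoa had the highest level, 54.6 ± 7.67 CPM per kb (SD over the 6 libraries), followed by Pkm at 39.6 ± 6.92 and Gpi1 at 21.2 ± 3.57. Each of these 3 was above the next in all 6 libraries. Below Gpi1 came Pfkp at 15.5 ± 4.03 CPM per kb, Ldha at 13.7 ± 5.23, Tpi1 at 9.91 ± 1.78 and Eno1 at 8.53 ± 1.91. Pfkl and Hk1 had 6.63 ± 1.59 and 6.59 ± 2.53 CPM per kb, and Pgk1 was lowest at 4.57 ± 2.04. From Pfkp downward, except for Ldha and Tpi1 (5 of 6), a gene exceeded its neighbour in only 3 or 4 of 6 libraries, so those neighbours did not differ beyond their spread.

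**Figure D1:**
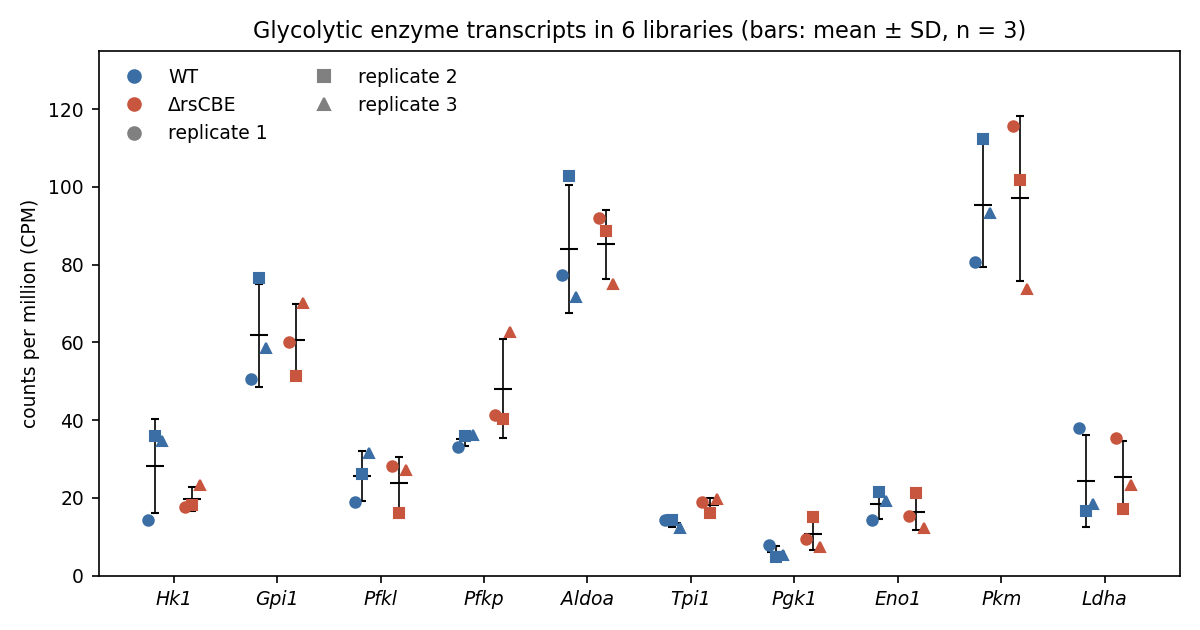
CPM of the 10 enzymes (horizontal axis) in each library, WT in blue and ΔrsCBE in red, with a marker shape for each replicate number and bars for the mean ± SD (n = 3). The genotypes overlap for 8 of the 10 genes; for Pfkp and Tpi1 the 3 ΔrsCBE libraries lie above the 3 WT libraries.

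The main comparison asked whether these enzymes differ between the genotypes. No difference was detected for any of the 9 that passed the count filter, and Pgk1 did not pass it. In edgeR's quasi-likelihood test 0 of 9 had an adjusted p-value (Benjamini-Hochberg over all genes) under 0.05, and 0 of 9 an unadjusted one; the DESeq2 Wald test also called 0. Over all 7792 genes tested, 1.68% passed the adjusted threshold (0.193% higher and 1.49% lower in ΔrsCBE) and 10.2% the unadjusted one, so counts of 0 among 9 genes lie near the background. The all-gene count of 131 was 59 without WT replicate 3, 57 without ΔrsCBE replicate 3 and 87 with sex as a covariate, while no enzyme was called in any of these fits. The median log2 fold change (ΔrsCBE minus WT) of the 9 enzymes was 0.05, with 5 above and 4 below 0, beside 0.01 for all tested genes, and it ran from -0.09 to 0.13 with 1 library left out and was 0.19 with the sex covariate. In sorted bulk cells, fewer cells that make a transcript and less of it per cell cannot be told apart.

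Hexokinase traps glucose in the cell as glucose-6-phosphate, and Hk1 is its widely expressed form. Hk1 had 14.2, 35.8 and 34.7 CPM in replicates 1 to 3 of WT and 17.7, 18.1 and 23.4 CPM in those of ΔrsCBE. WT replicates 2 and 3 were the highest, but WT replicate 1 was the lowest library of all, so the groups overlapped. The log2 fold change was -0.54 ± 0.34 (SE), with a 95% interval from -1.24 to 0.15 (edgeR adjusted p-value 0.639), the lowest of the 9 enzymes. The next enzyme, Gpi1, converts glucose-6-phosphate to fructose-6-phosphate. It had 50.6, 76.4 and 58.6 CPM in WT and 60.1, 51.3 and 70.1 CPM in ΔrsCBE, ranges that nearly coincide. Its log2 fold change was -0.0027 with an interval from -0.44 to 0.44 (edgeR adjusted p-value 0.999), that is between 0.735-fold and 1.35-fold of the WT level.

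Phosphofructokinase commits the sugar to glycolysis, and 2 of its 3 subunit genes, the liver type Pfkl and the platelet type Pfkp, are among the 10 enzymes. Pfkp had 33.2, 35.8 and 36.3 CPM in WT and 41.3, 40.3 and 62.7 CPM in ΔrsCBE. The WT libraries lay close together, with a coefficient of variation of 4.73%, and all ΔrsCBE libraries were above them, replicate 3 by the most. The means were 35.1 ± 1.66 and 48.1 ± 12.7 CPM (SD, n = 3), and the log2 fold change was 0.44 ± 0.25 (SE) and an interval from -0.07 to 0.94. This did not pass the threshold (edgeR unadjusted p-value 0.0885, adjusted 0.594), and with sex as a covariate, where ΔrsCBE replicate 1 alone stands for the genotype, the value was 0.23. Without ΔrsCBE replicate 3 it was 0.21.

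Pfkl had 19.0, 26.3 and 31.6 CPM in WT and 28.3, 16.1 and 27.1 CPM in ΔrsCBE, with no separation of the groups. Its log2 fold change was -0.17 with an interval from -0.83 to 0.49 (edgeR adjusted p-value 0.921). Pfkm, the muscle type, had between 1 and 5 counts in each library. Pfkp made up 61.8%, 51.7% and 52.8% of the counts of the 3 phosphofructokinase genes in replicates 1 to 3 of WT, with 95% Wilson intervals of 45.0% to 76.1%, 34.4% to 68.6% and 42.5% to 62.8%. In ΔrsCBE its share was 57.4% (44.9% to 69.0%), 65.6% (53.0% to 76.3%) and 65.4% (54.3% to 75.0%). These intervals and the floor express counting error alone, because PCR copies were not told apart by molecular identifiers. The means, 55.4% ± 5.51 and 62.8% ± 4.68 (SD, n = 3), differed by 7.35 percentage points and the exact permutation test (two-sided) gave p = 0.2 (0.6 adjusted over the 3 steps compared), where 0.1 is the smallest that 3 against 3 libraries allow. The same test on the Hk1 share of hexokinase counts and on the Eno1 share of enolase counts gave exact p-values of 0.8 and 1.

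Aldolase and triosephosphate isomerase split the 6-carbon sugar and interconvert the resulting triose phosphates. Aldoa had 77.4, 102.7 and 71.7 CPM in WT and 92.0, 88.6 and 75.0 CPM in ΔrsCBE, so the ΔrsCBE values all lay inside the WT range. Its log2 fold change of 0.08 had the narrowest interval of the 9, from -0.31 to 0.46 (edgeR adjusted p-value 0.953). Tpi1 had 14.2, 14.3 and 12.3 CPM in WT and 18.9, 16.1 and 19.7 CPM in ΔrsCBE, and here the groups did not overlap. These levels rest on 6 to 16 counts per library, and the log2 fold change of 0.44 ± 0.36 (SE) had an interval from -0.30 to 1.18 (edgeR adjusted p-value 0.764). Pfkp and Tpi1 were thus 2 of 9 enzymes without overlap between the genotypes, beside 16.2% of all tested genes.

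Pgk1, which makes the first ATP of the pathway, is X-linked and had 5, 2 and 7 counts in WT and 8, 15 and 6 in ΔrsCBE. These are 7.90, 4.78 and 5.40 CPM in WT and 9.43, 15.1 and 7.38 CPM in ΔrsCBE, with WT replicate 2 under the floor of 3 counts, and the groups overlapped. The highest value was in ΔrsCBE replicate 2, one of the libraries with the female pattern, while the other female-pattern library, replicate 3, lay within the WT range; the part of sex was not tested. In a fit without the count filter the log2 fold change of Pgk1 was 0.84 ± 0.55 (SE) and an interval from -0.23 to 1.92 (edgeR adjusted p-value 0.751), the widest of the 10.

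Eno1 forms phosphoenolpyruvate, and it had 14.2, 21.5 and 19.3 CPM in WT and 15.3, 21.1 and 12.3 CPM in ΔrsCBE. The libraries of the groups interleaved, and the log2 fold change was -0.15 with an interval from -0.88 to 0.59 (edgeR adjusted p-value 0.953). Pkm, which makes pyruvate and the second ATP, had 80.6, 112.3 and 93.3 CPM in WT and 115.6, 101.7 and 73.8 CPM in ΔrsCBE. Both the highest and the lowest of the 6 libraries were ΔrsCBE, and the log2 fold change was 0.05 with an interval from -0.34 to 0.44 (edgeR adjusted p-value 0.972), between 0.792-fold and 1.35-fold. Ldha had 37.9, 16.7 and 18.5 CPM in WT and 35.4, 17.1 and 23.4 CPM in ΔrsCBE. Replicate 1 was the highest of its group in both genotypes, and the log2 fold change was 0.06 with an interval from -0.67 to 0.79 (edgeR adjusted p-value 0.978). With sex as a covariate the values of Ldha and Pkm were 0.56 and 0.30, neither past the threshold.

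**Figure D2:**
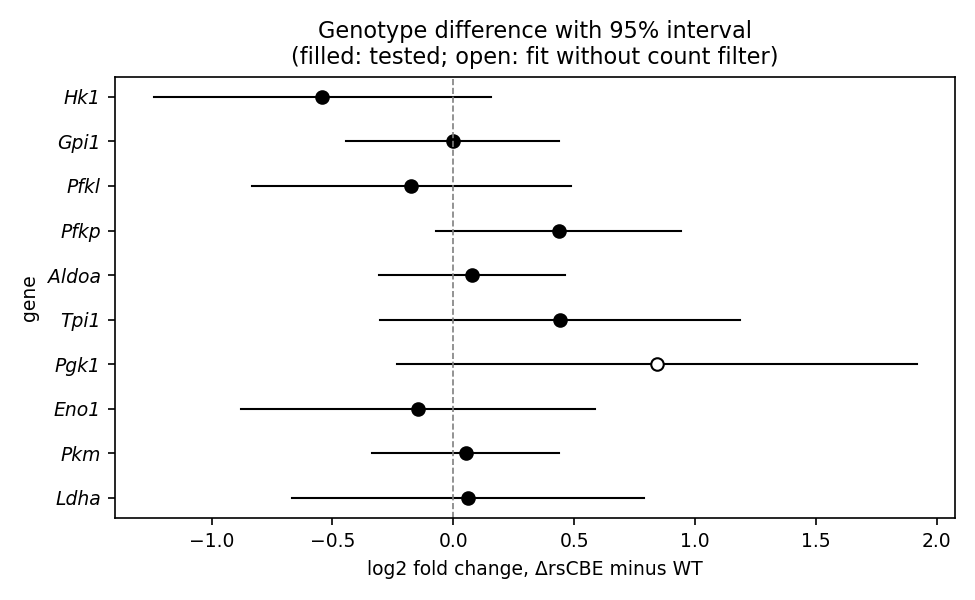
Log2 fold change (ΔrsCBE minus WT, horizontal axis) of each enzyme with its 95% interval; filled points are from the edgeR fit, and the open point of Pgk1 is from the fit without a count filter. Each interval includes 0, from the narrowest, Aldoa (-0.31 to 0.46), to the widest, Pgk1 (-0.23 to 1.92).

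The enzymes also differed in how much replicates of a genotype varied. The chi-square per degree of freedom of their counts within genotypes, which is near 1 for counting noise alone, was 3.52 for Ldha, 2.60 for Pkm and 1.91 for Hk1, and 1.36 to 1.53 for Aldoa, Gpi1, Pfkp and Pfkl. It was 0.130 for Tpi1, 0.775 for Eno1 and 0.815 for Pgk1, the 3 enzymes with the fewest counts. Between pairs of replicate libraries, the corresponding value averaged over the tested genes was 1.88 to 3.41. These are averages of many genes and not the spread of single genes, so they cannot place an enzyme inside or outside an ordinary range. Ldha, the most variable enzyme, had 17 to 30 counts in 5 libraries and 7 in WT replicate 2.

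As a share of all counts the 10 enzymes took 0.0355%, 0.0437% and 0.0381% in replicates 1 to 3 of WT and 0.0438%, 0.0384% and 0.0396% in those of ΔrsCBE. The 95% Wilson intervals of the libraries ran from 0.0311% to 0.0405% for the lowest, WT replicate 1, and from 0.0396% to 0.0486% for the highest, ΔrsCBE replicate 1. WT averaged 0.0391% ± 0.00420 and ΔrsCBE 0.0406% ± 0.00284 (SD, n = 3). They differed by 0.00156 percentage points, which is smaller than the SD of either genotype. The sign of this difference rests on single libraries: it was -0.000236 without WT replicate 1, -3.89e-05 without ΔrsCBE replicate 1 and 0.00387 without WT replicate 2.

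The same libraries differed in cell-cycle transcripts. Of 26 cell-cycle genes 23 were tested, 17 of them fell in ΔrsCBE and 0 rose, beside 1.49% and 0.193% of all tested genes, and the median log2 fold change was -1.14. Their summed level was 6985, 7746 and 7341 CPM in the WT libraries and 3145, 4724 and 2960 CPM in the ΔrsCBE libraries, without overlap. The summed level of the 10 enzymes was 349, 447 and 382 CPM in WT and 434, 386 and 395 CPM in ΔrsCBE, with overlap. Early response genes, which are induced within minutes of stimulation or cell handling, also moved with genotype. All 9 tested were above 0, and 3 of them, Fos, Jun and Jund, rose. Their list summed to 2985, 2465 and 2667 CPM for WT and 5357, 3516 and 4903 CPM for ΔrsCBE, again without overlap. The part of either list in the enzyme levels was not tested.

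**Figure D3:**
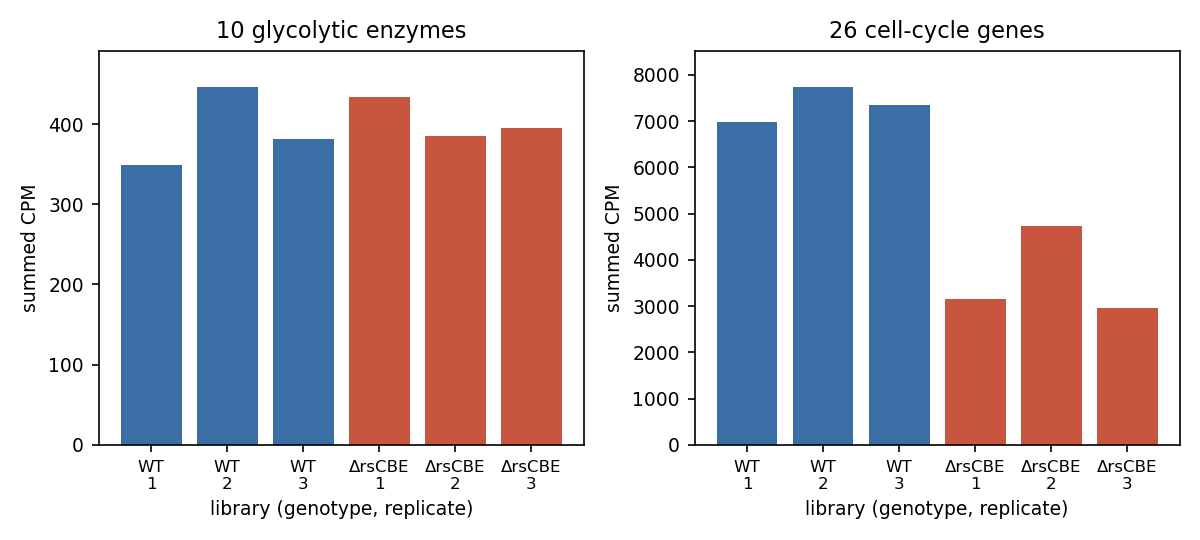
Summed CPM of the 10 glycolytic enzymes (left) and of 26 cell-cycle genes (right) in each library, WT in blue and ΔrsCBE in red. The enzyme sums overlap between genotypes (349 to 447 and 386 to 434 CPM), and the cell-cycle sums do not (6985 to 7746 and 2960 to 4724 CPM).

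Which isozymes these cells express was read from a list of further enzyme genes, several of which were at 0 in all libraries. Ldhb and Ldhc, the other lactate dehydrogenases, Pklr, the liver and red cell pyruvate kinase, Pgk2, the testis phosphoglycerate kinase, and Eno2, the neuronal enolase, were among these, as were Hkdc1 and Pgam2. A gene at 0 is below 2.31 to 7.17 CPM, depending on the library. For Ldhb 35.6% of the coding words were shared with a copy, so its absence from the counts is less certain than that of the others named, which shared none. Among the isozyme genes of pyruvate kinase, phosphoglycerate kinase and lactate dehydrogenase, every count was therefore of Pkm, Pgk1 and Ldha. Counts listed for their copies are left out of this statement. Aldoc had a single count in ΔrsCBE replicate 2.

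Hexokinase 2, the inducible form encoded by Hk2, had between 4 and 8 counts per library. Hk1 made up 56.2%, 65.2% and 84.9% of hexokinase counts in replicates 1 to 3 of WT and 62.5%, 81.8% and 76.0% in those of ΔrsCBE. Eno1 held 18.2% to 41.0% of the counts of the 4 enolase genes. Eno1b is among these 4 and had 93.5% of its coding words at another locus. Reads of Eno1 and Eno1b may thus not be cleanly divided, which also limits the test of the Eno1 share above. Eno3, the muscle enolase (chromosome 11, 70657202 to 70662513, plus strand), chosen for mention once its values were known, had 30, 21 and 29 counts in WT and 19, 26 and 30 in ΔrsCBE. Per length its level was 23.5 ± 8.59 CPM per kb, above Eno1 at 8.53 ± 1.91, while 83.3% of the Eno1 words and none of the Eno3 words were shared with another locus. Its log2 fold change was -0.36 ± 0.32 (SE) (edgeR adjusted p-value 0.776).

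Gapdh and Pgam1 catalyse the steps on each side of Pgk1 and are not among the 10 enzymes, and their counts were lower still. Gapdh had 1, 0 and 3 counts in WT and 2, 2 and 2 in ΔrsCBE, although it is ordinarily one of the most abundant transcripts of a cell. Of its coding words 94.2% were shared, with 217 copies at other loci. Pgam1 had between 1 and 7 counts, all of its words were shared, and its copy Pgam1-ps2 had more counts than Pgam1 itself in each library (5 to 19). Across the 10 enzymes, the shared percentage and the level per kb had a Spearman correlation of 0.018, as a description of genes and not of replicates. Loss of reads to copies was not tested and cannot be seen in a table of counts per gene.

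**Figure D4:**
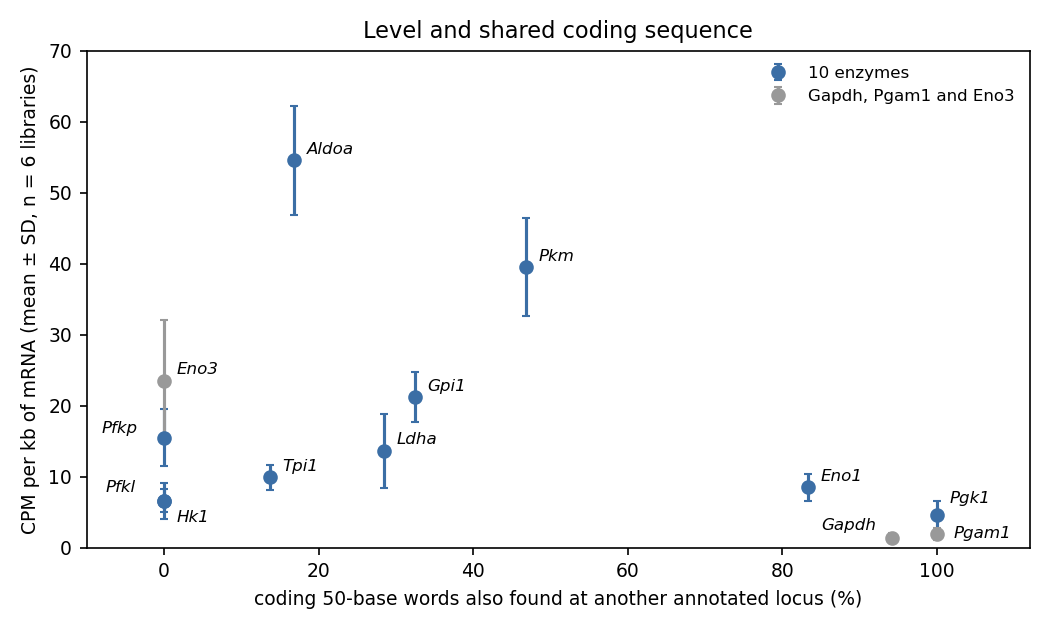
Level per kb of mRNA (vertical axis, mean ± SD over 6 libraries) against the percentage of coding 50-base words found at another annotated locus (horizontal axis), for the 10 enzymes (blue) and for Gapdh, Pgam1 and Eno3 (grey). Among the genes drawn, Pgk1, Gapdh and Pgam1, with 94.2% to 100% shared, lie lowest (4.57, 1.40 and 1.91 CPM per kb). Hk1 and Pfkl, with 0%, follow at 6.59 and 6.63. Hk2 and Pfkm are not drawn, and they lay as low, at 1.68 and 1.33 CPM per kb, with 0% shared.

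Genes around glycolysis were compared in 6 lists: the other enzymes, transport of glucose and lactate, control of flux, entry of pyruvate into mitochondria, transcriptional control, and HIF targets outside glycolysis. Of 83 listed genes 33 were tested, and 0 rose and 0 fell in edgeR's test (adjusted p-value under 0.05), with 1 at an unadjusted p-value under 0.05 (10.2% of all tested genes) and 0 called by DESeq2. Their median log2 fold change was 0.02, with 17 above and 16 below 0, and the groups did not overlap for 5 of the 33, near the 16.2% of all tested genes.

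The lactate and pyruvate carrier Slc16a1 (MCT1) had 139, 162 and 147 CPM in WT and 125, 125 and 132 CPM in ΔrsCBE. The groups did not overlap, but the log2 fold change was -0.23 ± 0.15 (SE), short of the threshold (edgeR adjusted p-value 0.665). Slc16a3 (MCT4) was at 0. The glucose transporter Slc2a1 (GLUT1) had 6 to 16 counts per library and a log2 fold change of 0.14 ± 0.40 (SE), and Slc2a3 (GLUT3) had 2 to 10 counts. Pfkfb3, which makes the activator of phosphofructokinase and was likewise chosen once its values were known, had 204, 196 and 210 CPM in WT and 223, 244 and 250 CPM in ΔrsCBE, without overlap. Its log2 fold change of 0.23 ± 0.13 (SE) did not pass the threshold (edgeR adjusted p-value 0.594).

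Of the pyruvate entry genes 8 of 10 were tested, with a median log2 fold change of -0.21. Dlat, the E2 subunit of pyruvate dehydrogenase, was the 1 gene of all 33 with an unadjusted p-value under 0.05, and it too is named after its values were seen. It had 39.5, 43.0 and 34.7 CPM in WT and 23.6, 22.1 and 23.4 CPM in ΔrsCBE, without overlap, and a log2 fold change of -0.73 ± 0.27 (SE). The edgeR p-value was 0.0137 unadjusted and 0.281 adjusted, so the difference did not pass the threshold. Pdk1, the kinase that inhibits this complex and a known HIF target, had 2 to 7 counts per library and did not pass the count filter.

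Among the regulators, Hif1a had 168, 141 and 168 CPM in WT and 165, 180 and 151 CPM in ΔrsCBE, with a log2 fold change of 0.04 ± 0.14 (SE) (edgeR adjusted p-value 0.968). Txnip, a glucose-induced inhibitor of glucose uptake, had 291, 260 and 383 CPM in WT and 381, 300 and 325 CPM in ΔrsCBE, with a log2 fold change of 0.07 ± 0.14 (SE) (edgeR adjusted p-value 0.922). Myc had 0 to 7 counts per library and did not pass the count filter. The 3 tested HIF targets outside glycolysis had log2 fold changes from 0.04 to 0.49, none past the threshold.

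**Figure D5:**
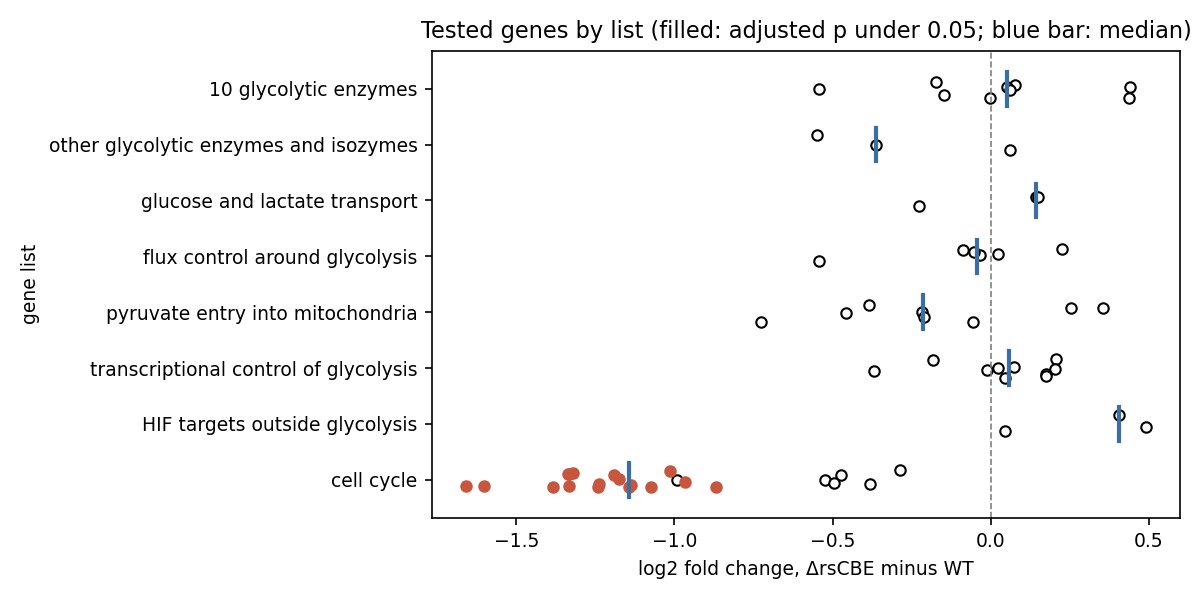
Log2 fold change (ΔrsCBE minus WT) of the tested genes of each list, with red filled points for an edgeR adjusted p-value under 0.05 and a blue bar for the list median. The 10 enzymes and the 6 lists around them have 0 called genes, and 17 of the 23 tested cell-cycle genes are called, all below 0.

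The promoters of the enzymes were searched for the cores of the HIF site, ACGTG and GCGTG, on both strands, in RefSeq windows of 300 bases (250 before to 50 after each start, GRCm38.p6). All 10 enzymes matched the table, with 17 starts, of which 12 had a core, against 43.8% of all 32851 promoters. Because starts of the same gene are not independent, genes were also counted. A core was present at any start for 8 of the 10 enzymes, against 46.7% of 27025 genes. These shares were not tested. CACGTG, the E-box bound by MYC, contains a HIF core on each strand and occurred at 1 of the 17 starts, against 7.15% of all promoters. That start belongs to Ldha, and its upstream 250 bases (chr7:46845554-46845803, plus strand) are shown with the cores in capitals.
Ldha: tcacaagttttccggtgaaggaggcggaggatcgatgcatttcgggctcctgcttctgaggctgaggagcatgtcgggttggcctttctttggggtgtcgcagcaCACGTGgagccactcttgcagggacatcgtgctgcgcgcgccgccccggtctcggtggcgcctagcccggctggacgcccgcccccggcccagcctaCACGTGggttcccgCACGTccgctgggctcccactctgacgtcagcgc
It holds CACGTG 2 times. A match is a description of the letters, not a bound site.

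Over the 6 libraries the mean centred log2 CPM of the 9 tested enzymes was 0.21 in WT replicate 2, 0.09 in ΔrsCBE replicate 1 and 0.03 in ΔrsCBE replicate 3, and -0.05, -0.14 and -0.14 in WT replicate 3, WT replicate 1 and ΔrsCBE replicate 2. The high and low libraries thus came from both genotypes. Of 3783 other genes with a mean of at least 50 CPM, those with the highest Pearson correlation with this profile over 6 libraries were Ptpa (0.998), Prpf6 (0.993), Mllt1 (0.991), H2-Q7 (0.989) and Spop (0.974). With 6 points and so many genes, high values arise readily, and the correlations are given as a description. Among the enzymes themselves Aldoa and Pkm had the highest pairwise correlation (0.80), and Hk1 and Ldha the lowest (-0.65).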

How the data were processed

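The authors deposited 1 table of raw read counts (whole numbers, one column a library, rows named by gene symbol) without normalization; the submitters' processing notes name Trim Galore 0.6.10, STAR 2.7.11, HTSeq, DESeq2 and mm10, without roles. The annotation, strand setting and treatment of reads with several matches are not given in the sources used here. Columns were assigned by library name and groups by genotype. Counts were tested with edgeR 4.0.16 in R 4.3.3: filterByExpr (minimum count 10) kept 7792 genes, libraries were scaled by TMM, and glmQLFit (robust) with genotype as the sole factor was followed by glmQLFTest, with Benjamini-Hochberg adjustment over all tested genes and a threshold of 0.05. Standard errors and 95% intervals come from the quasi-likelihood F statistic. The procedure was tested on simulated data. Log2 CPM used a prior count of 2. Coordinates, lengths and 50-base words are from GENCODE M21 (GRCm38, the build named mm10). The 10 enzymes are all named. From the surrounding lists 12 genes fixed by symbol (Gapdh, Pgam1, Hk2, Pfkm, Ldhb, Slc2a1, Slc2a3, Slc16a1, Pdk1, Hif1a, Myc, Txnip) are named, as is any gene past the threshold, and the 5 genes most alike. The enzymes, lists and tests were chosen with earlier results of these data known. Alternatives were other scalings, DESeq2 1.42.0, other filters and thresholds, each library left out, a replicate block and a sex covariate. Of the listed symbols, Ero1l and Cd43 are not row names of the table.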

Additional observations from a re-analysis of the deposited data

How the results depend on the processing

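No enzyme and no gene of the 6 lists around glycolysis passed the threshold under any alternative run (other scalings, DESeq2, other filters, a threshold of 0.1, each library left out, a sex covariate and a replicate block). Replicate numbers are shared by the genotypes. Deviations from the genotype mean correlated at 0.00067 to 0.014 for same-numbered libraries and at -0.049 to 0.042 for the others. With deviations taken within 3 libraries, these values cannot tell whether same-numbered libraries were handled together. With the replicate block 0 enzymes and 136 genes in all were called. The enzymes' median log2 fold change was then 0.0092 (0.19 with the sex covariate). The all-gene count of 131 was 87 with the sex covariate and 57 to 187 with 1 library left out (57 without ΔrsCBE replicate 3, 59 without WT replicate 3); the cause was not tested. Of 225 log2 fold changes of named genes under alternatives, 20 changed sign, in 8 genes whose values lay between -0.17 and 0.08. Gpi1 was 0.0062 with library size alone, 0.0039 with no filter on low counts, 0.0059 where 3 libraries had to reach 1 CPM and 0.0092 with the replicate block, and Pfkl was 0.087 with the sex covariate; the cause was not tested. With 1 library left out, Gpi1 ran from -0.12 to 0.13, Pfkl from -0.34 to 0.092, Aldoa from -0.054 to 0.21, Eno1 from -0.39 to 0.0072, Pkm from -0.086 to 0.20, Ldha from -0.26 to 0.48, Hif1a from -0.023 to 0.10 and Txnip from -0.039 to 0.27. Hk1 stayed below 0 (-0.83 to -0.25), and Pfkp (0.21 to 0.56) and Tpi1 (0.34 to 0.53) above it. The Pfkp share of phosphofructokinase counts stayed 5.49 to 10.5 percentage points higher in ΔrsCBE. The alternatives for Slc2a1, Slc16a1, Hif1a, Txnip, Eno3, Dlat, Pfkfb3 and this share were chosen after seeing the data. The tested enzymes had 6 to 121 counts per library, and their 95% intervals reached down to 0.423-fold (Hk1) and up to 2.27-fold (Tpi1) of the WT level.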
